A study of Homo sapiens with 3 samples.

Results

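The 40 genes described here encode the core of the apoptosis machinery. They comprise the BCL2 family, caspases, death receptors with their adaptors, proteins released from mitochondria, and the inhibitor of apoptosis proteins (IAPs). They were chosen by name for their function, and 37 of them had a probe that could be read on all 3 arrays, out of 12031 such genes. The missing genes were *BMF*, *BCL2* and *APAF1*. Expression was measured in HCT116 cells, an established human colon cancer cell line, 48 h after treatment with control siRNA or with either of 2 siRNAs, #7 and #8, designed against *HOXA5* short RNA, a non-coding transcript of the *HOXA6-HOXA5* locus. Total RNA (400 ng per condition) was labeled with Cy3 and hybridized to 1 single-color SurePrint G3 array per condition, all on the same slide. The question for these genes was whether RNA levels of the apoptosis machinery differed between cells given control siRNA and cells given a silencing siRNA.

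Apoptosis is started along a pair of routes. In the intrinsic route, BH3-only proteins, which sense stress, neutralize the anti-apoptotic BCL2 proteins and set free BAX and BAK1, which open the outer mitochondrial membrane. Cytochrome c then leaves the mitochondria and assembles the apoptosome with APAF1 and caspase-9. In the extrinsic route, ligand-bound death receptors such as FAS and the TRAIL receptors recruit FADD and caspase-8 or caspase-10, and IAPs restrain the caspases at the end of both routes.

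Both siRNAs were aimed at the exon junction of *HOXA5* short RNA and overlap in sequence. Their sequences are shown because every comparison turns on these reagents, with the bases common to both in capitals, as the study's supplement lists them without naming the strand.
siRNA #7: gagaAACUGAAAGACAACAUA
siRNA #8: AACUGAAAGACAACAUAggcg
Of the 21 bases of each siRNA, 17 are shared and 4 are not.

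Values below are scaled intensities of 1 probe per gene, the brightest readable one, where each array was scaled so that its 75th percentile equaled that of the control siRNA array. Intensities of different genes come from different probes and cannot be ranked. Differences are log2 ratios to control siRNA, on which 1 is 2-fold. The ± value is the SD of a ratio expected from spot to spot within arrays, and it leaves out variation between cultures. Each condition was represented by a single array, so the differences have no check from replicates and were not tested. Both siRNA arrays were set against the same control array, so a shared direction in the pair of ratios is no independent support, whereas the ratio of siRNA #8 to siRNA #7 does not use the control array.

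Between 19069 and 20473 of the 50599 gene probes on an array were well above background, and 0 gene spots were saturated. The spot-to-spot SD was 0.15 to 0.18 on the log2 scale. Of the colon epithelial markers, 5 of 7 were well above background on all arrays (*EPCAM*, *CDH1*, *KRT8*, *KRT18* and *KRT19*). The brightest probes of all 7 summed to 47689 to 56157 per array before scaling. None of the 3 leukocyte markers or the 2 endothelial markers was well above background on every array, and of 3 fibroblast markers *COL1A1* was. The *HOXA5* probe, whose accession is that of the protein-coding transcript, read 84.9 on the control array, 66.0 under siRNA #7 and 72.2 under siRNA #8. Its ratios were -0.36 ± 0.25 and -0.23 ± 0.26. The paper reports that the short RNA ends at the annotated polyA site of *HOXA5*, and the position of the probe is not known. Whether the probe also reads the short RNA is therefore unknown, and its values cannot be taken as a check of the silencing.

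Across the 37 genes, the median log2 ratio was 0.073 with siRNA #7, where 22 genes lay above 0 and 15 below, and -0.073 with siRNA #8, where 15 lay above and 22 below. The medians over all genes were 0.015 and 0.0071, and 51.6% and 50.8% of all genes lay above 0. Ratios of the apoptosis genes exceeded 2 spot-to-spot SDs in 15 of 37 genes with siRNA #7, beside 29.8% of all genes, and in 17 with siRNA #8, beside 31.4%. Of the 37, 13 genes had opposite signs with the pair of siRNAs, a count not given here for all genes. The sign of the siRNA #7 median turned to -0.20 when the arrays were scaled on spike-in controls, a scaling that moved the median of all genes to -0.26 with siRNA #7 and -0.19 with siRNA #8. It also turned to -0.12 with normexp background correction and to -0.012 when the local signal of neighboring spots was removed.

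Few of the genes reached 2-fold. With siRNA #7, 0 of 37 were at least 2-fold higher than with control siRNA, beside 2.05% of all genes, and 1, *CASP10*, was at least 2-fold lower, beside 1.76%. With siRNA #8, *BBC3* alone was at least 2-fold higher, beside 1.96% of all genes, and *CASP10* and *BIRC3* were at least 2-fold lower, beside 3.04%. With both siRNAs, 0 genes were 2-fold higher, where all genes gave 0.74%, and *CASP10* was 2-fold lower, where all genes gave 0.158%. At 1.5-fold with both siRNAs, *BAK1* and *BBC3* were higher and *CASP10* and *BIRC3* lower, beside 3.03% and 1.67% of all genes. Among 37 genes, 1 gene is a share of 2.70%, so these counts resolve the shares only coarsely.

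**Figure D1:**
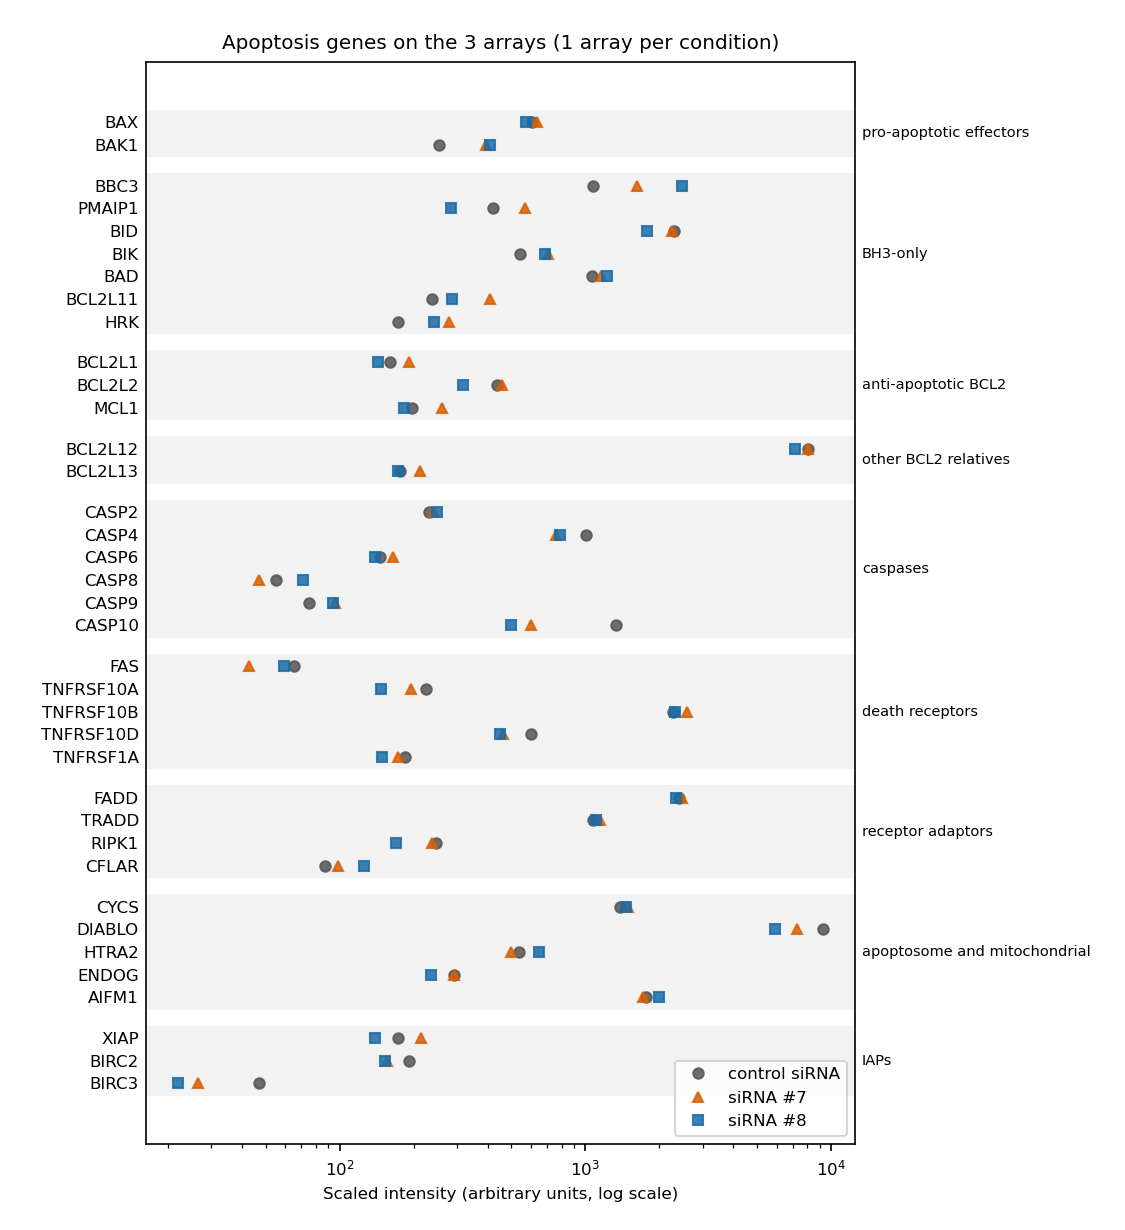
Scaled intensity (log axis) of the 37 readable apoptosis genes, grouped by role, with 1 point per array for control siRNA (circles), siRNA #7 (triangles) and siRNA #8 (squares). Points are to be compared within a gene only. In *CASP10* the control array, at 1326, lies far to the right of both siRNA arrays, at 598 and 497, and in *BBC3* far to the left.

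The effectors of the intrinsic route are BAX and BAK1, which form pores in the outer mitochondrial membrane. *BAK1* read 255 on the control array, 394 under siRNA #7 and 411 under siRNA #8. Both siRNA arrays were above the control array, by 0.63 ± 0.16 and 0.69 ± 0.18, and the ratios stayed at 0.31 or more under all 10 alternative settings. *BAX*, measured on a probe printed 10 times, read 604, 636 and 574 in the same order. Its ratios were 0.074 ± 0.054 and -0.073 ± 0.060, and the first turned negative with spike-in scaling (-0.20), normexp (-0.14), the mean of its probes (-0.25) and removal of neighboring signal (-0.016). A second, dim probe for another *BAX* transcript gave -0.58 ± 0.33 and 0.12 ± 0.26.

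Among the BH3-only genes, 6 of the 7 readable members lay above the control array with siRNA #7 and 5 with siRNA #8, beside 51.6% and 50.8% of all genes. The BH3-only medians were 0.43 and 0.26. Both medians stayed above 0 under every alternative, from 0.16 to 0.45 for siRNA #7 and from 0.068 to 0.31 for siRNA #8. *BBC3* encodes PUMA, a p53-induced protein that binds all anti-apoptotic BCL2 relatives. It read 1072 on the control array, 1626 under siRNA #7 and 2465 under siRNA #8, ratios of 0.60 ± 0.15 and 1.20 ± 0.16. The 12 spots around its single spot also read higher with siRNA #8 (median 0.33) and lower with siRNA #7 (-0.21). With that local signal removed, the ratios were 0.81 and 0.87, so that *BBC3* was no longer past 2-fold with siRNA #8 and the difference between the siRNAs shrank from 0.60 to 0.063.

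*PMAIP1* encodes NOXA, a p53-induced protein that binds MCL1. Its ratios had opposite signs, with readings of 421 on the control array, 568 under siRNA #7 and 285 under siRNA #8. The ratios to control siRNA were 0.43 ± 0.15 and -0.56 ± 0.18, and the signs were the same under all 10 alternatives. *BCL2L11* encodes BIM, which binds all anti-apoptotic relatives. Its brightest probe read 238, 409.6 and 285, ratios of 0.78 ± 0.16 and 0.26 ± 0.18. A second probe for it gave 0.76 and 0.26, and the dimmest probe, at 15.5 on the control array, gave -0.048 and 0.086.

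*HRK*, whose product binds BCL-XL, read 173 on the control array, 279.8 under siRNA #7 and 243 under siRNA #8. The ratios were 0.69 ± 0.16 and 0.49 ± 0.18, and its neighboring spots were also higher with siRNA #7 (0.24). *BIK* read 540.0, 707 and 682, ratios of 0.39 ± 0.15 and 0.34 ± 0.17 for this BH3-only protein of the endoplasmic reticulum. *BAD*, whose product is held inactive by survival kinases, had ratios of 0.13 ± 0.15 and 0.20 ± 0.16, within 2 SDs of 0, and normexp turned both signs (-0.12 and -0.056). *BID* links death receptors to mitochondria after cleavage by caspase-8. It read 2288, 2245 and 1779.7, ratios of -0.028 ± 0.14 and -0.36 ± 0.15. Its second probe, at -0.54 and -0.55, was lower with both siRNAs, while removing the neighboring signal turned the first ratio to 0.11.

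*BMF*, whose product senses loss of attachment, was well above background only on the siRNA #8 array, and there only with the brighter of its probes. Its scaled intensity there was 17.5, beside 6.01 on the control array and 7.06 under siRNA #7. Set against the lowest signal well above background on those arrays, 17.5 was 2.62-fold higher for control siRNA and 1.90-fold higher for siRNA #7. The dimmer probe read 2.10, 2.35 and 2.42. These bounds rest on 1 dim spot, picked because it was high on that array. They leave out its spot-to-spot SD, 0.41 for the siRNA #8 ratio, and do not establish a difference.

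**Figure D2:**
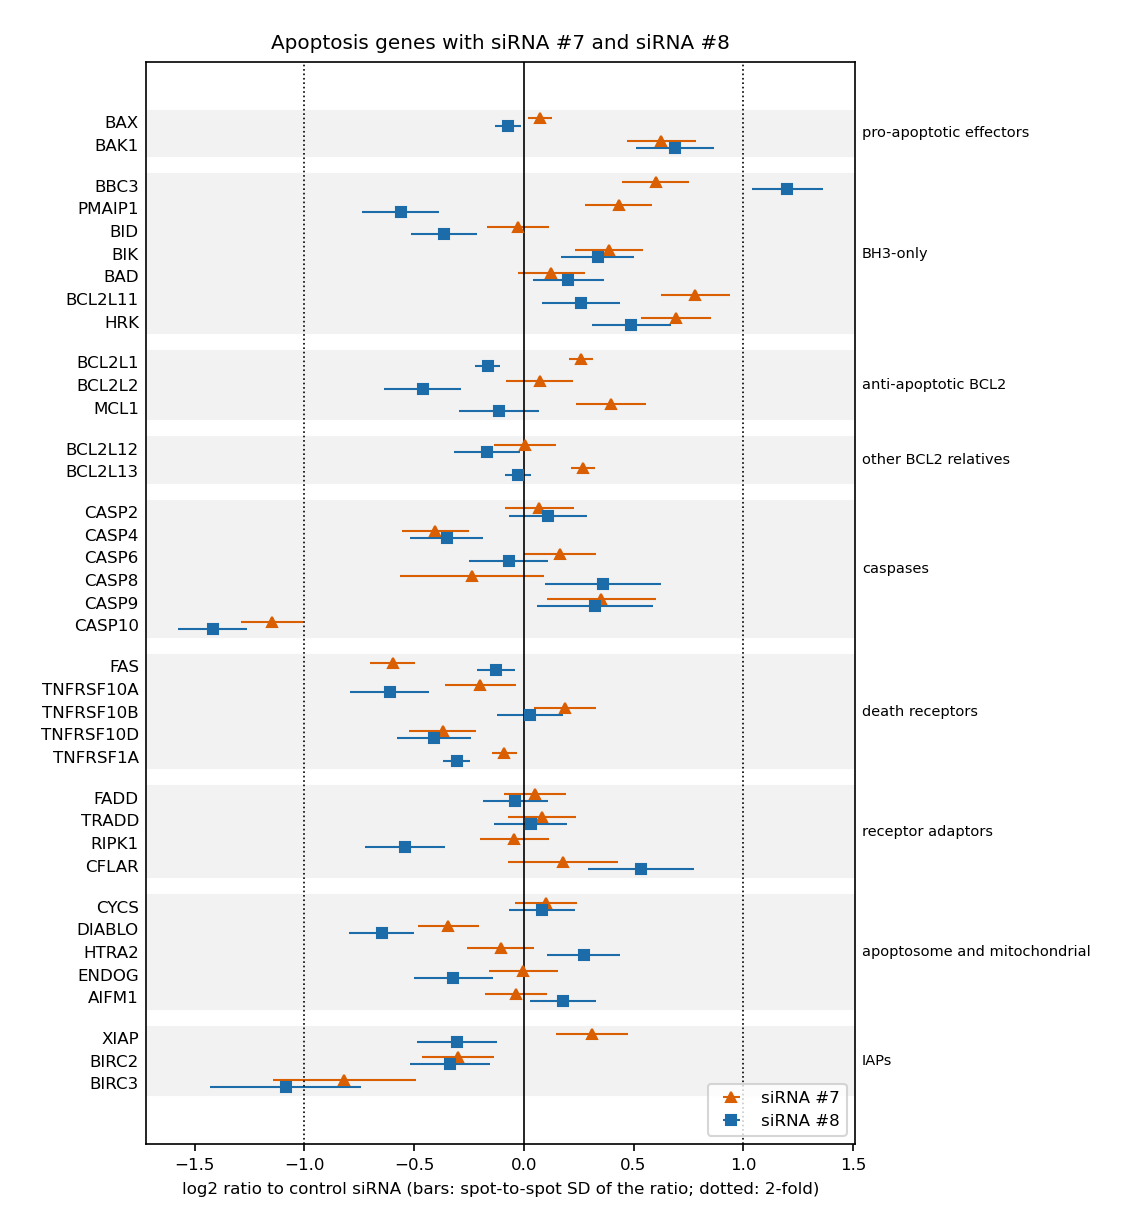
Log2 ratios to control siRNA of the 37 readable apoptosis genes by role, for siRNA #7 (triangles) and siRNA #8 (squares), 1 array each. Bars give the SD expected from spot to spot, and dotted lines mark 2-fold. *CASP10* lies below the lower line with both siRNAs, the points of *BIRC3* and *BBC3* lie outside the lines with siRNA #8 only, and the points of the other genes lie between the lines. With spike-in scaling all points lie farther left, the median of all genes being -0.26 and -0.19.

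The anti-apoptotic BCL2 proteins hold BAX and BAK1 in check. All 3 readable members lay above the control array with siRNA #7 (median 0.26, or -0.015 with spike-in scaling) and below it with siRNA #8 (median -0.16). *MCL1* read 198 on the control array, 261 under siRNA #7 and 183 under siRNA #8, ratios of 0.40 ± 0.16 and -0.11 ± 0.18. *BCL2L1*, which encodes BCL-XL, read 160.3, 192 and 143 on a probe printed 10 times. Single spots of this probe ranged from 147 to 173 on the control array, from 176 to 209 with siRNA #7 and from 138 to 148 with siRNA #8. The gap between the siRNA #7 spots and the others holds at this scaling and shows spread within arrays only. How often other probes printed 10 times had such a gap is not given here. Its ratios were 0.26 ± 0.053 and -0.16 ± 0.057, and spike-in scaling took the first to -0.015. *BCL2L2*, which encodes BCL-W, read 436, 459 and 317, ratios of 0.073 ± 0.15 and -0.46 ± 0.18, and the first turned negative with spike-in scaling (-0.20), normexp (-0.15) and removal of neighboring signal (-0.17). *BCL2* itself did not rise well above background on the arrays, at scaled intensities of 5.40, 4.41 and 4.35.

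Of the other BCL2 relatives, *BCL2L12*, whose product has been linked to p53 and caspase inhibition, read 8013, 8036 and 7133. The ratios were 0.0041 ± 0.14 and -0.17 ± 0.15, and the first turned negative with the median of each array, quantile normalization, spike-in scaling, normexp and removal of neighboring signal (-0.27 to 0.039 over the alternatives). *BCL2L13*, which encodes a mitochondrial outer membrane protein, read 176, 212 and 173, ratios of 0.27 ± 0.054 and -0.025 ± 0.059, the first at -0.0052 with spike-in scaling and the second at 0.028 with the percentile taken over probes well above background. Over the whole BCL2 family, 13 of 14 readable members were above the control array with siRNA #7 (median 0.33) and 6 of 14 with siRNA #8 (median -0.049). Among all genes, 51.6% and 50.8% were above it. The siRNA #7 median ranged from 0.054 to 0.33 over the alternatives and the siRNA #8 median from -0.24 to 0.0042.

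Caspases are the proteases of apoptosis. *CASP10*, an initiator caspase that is recruited to death receptors beside caspase-8, had the lowest ratios of the 37 genes with both siRNAs. It read 1326 on the control array, 598 under siRNA #7 and 497 under siRNA #8, ratios of -1.15 ± 0.14 and -1.42 ± 0.16. Spots around it differed little (-0.13 and -0.020), and with their signal removed the ratios were -1.02 and -1.40. However, a second probe for the same transcript went the other way. It read 40.7, 53.6 and 55.3, ratios of 0.40 ± 0.25 and 0.44 ± 0.26, and taking the mean of both probes left -0.38 and -0.49. The files do not say which parts of *CASP10* the probes cover, so the call holds for the brighter probe only.

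*CASP4*, an inflammatory caspase that senses lipopolysaccharide, read 1004 on the control array, 759 under siRNA #7 and 786 under siRNA #8. Ratios were -0.40 ± 0.15 and -0.35 ± 0.17, but its neighboring spots were also lower with siRNA #7 (-0.31). Removing their signal left -0.089 with siRNA #7 and -0.37 with siRNA #8, whereas normexp gave -0.89 and -0.61. *CASP8*, the main initiator of the extrinsic route, read 55.2, 46.9 and 70.8, ratios of -0.24 ± 0.33 and 0.36 ± 0.26. *CASP9*, the initiator of the apoptosome, read 74.8, 95.6 and 93.7, ratios of 0.35 ± 0.25 and 0.33 ± 0.26. Neither gene lay beyond 2 SDs of 0 with either siRNA, and the siRNA #7 ratio of *CASP9* was -0.013 after removal of neighboring signal. *CASP2*, which is tied to the PIDDosome, had ratios of 0.070 ± 0.16 and 0.11 ± 0.18, both turned negative by spike-in scaling (-0.20 and -0.083). *CASP6*, an executioner caspase, had 0.17 ± 0.16 and -0.070 ± 0.18, the first at -0.11 with spike-in scaling. Over the 6 caspases, the median was -0.083 with siRNA #7 and 0.020 with siRNA #8, the latter changing sign with the median of each array, spike-in scaling, normexp, the mean of passing probes and removal of neighboring signal (-0.17 to 0.074 over the alternatives).

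Death receptors start the extrinsic route, and 4 of the 5 readable members lay below the control array with each siRNA. Of all genes, 51.6% lay above it with siRNA #7 and 50.8% with siRNA #8. The receptor medians were -0.20 with siRNA #7 and -0.31 with siRNA #8, and neither changed sign under the alternatives (-0.47 to -0.19 and -0.50 to -0.25). *FAS*, the receptor of FAS ligand, read 65.1 on the control array, 43.0 under siRNA #7 and 59.7 under siRNA #8 on a probe printed 10 times. Single spots ranged from 53.4 to 70.5 on the control array, from 36.2 to 50.7 with siRNA #7 and from 51.4 to 64.6 with siRNA #8. At this scaling, spots of the siRNA #7 array lay below those of the other arrays, which shows spread within arrays only. The share of other probes printed 10 times with such a gap is not given here. The ratio was -0.60 ± 0.10 for siRNA #7 against -0.13 ± 0.085 for siRNA #8. A second *FAS* probe, on 1 spot, gave -1.16 ± 0.33 and -0.15 ± 0.26, while normexp reduced the siRNA #7 ratio of the first probe to -0.25.

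TRAIL, a ligand of the TNF family, binds several receptors, of which 3 are members. *TNFRSF10A*, a TRAIL receptor with a death domain, read 225 on the control array, 196 under siRNA #7 and 147 under siRNA #8, ratios of -0.20 ± 0.16 and -0.61 ± 0.18. *TNFRSF10B*, the other receptor of this kind and a p53 target, read 2280.3, 2595 and 2324, ratios of 0.19 ± 0.14 and 0.027 ± 0.15 that spike-in scaling turned to -0.089 and -0.17. *TNFRSF10D*, a decoy receptor without a working death domain, read 599, 464 and 451, ratios of -0.37 ± 0.15 and -0.41 ± 0.17. *TNFRSF1A*, the receptor of TNF, read 184, 173 and 149 on a probe printed 10 times, ratios of -0.090 ± 0.057 and -0.31 ± 0.061.

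Receptor adaptors and regulators had medians of 0.067 with siRNA #7 and -0.0034 with siRNA #8, both of which changed sign under some scalings (-0.21 to 0.071 and -0.20 to 0.050). *FADD*, which bridges FAS to caspase-8, read 2396, 2482 and 2332. Its ratios of 0.051 ± 0.14 and -0.039 ± 0.15 changed sign under some scalings, as did those of *TRADD*, the TNF receptor adaptor, at 0.083 ± 0.15 and 0.032 ± 0.17. *RIPK1*, a kinase that steers TNF signaling toward survival or death, read 246 on the control array, 239 under siRNA #7 and 169 under siRNA #8. Its ratios were -0.044 ± 0.16 and -0.54 ± 0.18, and the second was -0.32 after the signal of neighboring spots (-0.22) was removed. *CFLAR*, which encodes FLIP, an inhibitor of caspase-8, read 87.2, 98.6 and 126, ratios of 0.18 ± 0.25 and 0.53 ± 0.24. The first was -0.097 with spike-in scaling, and other *CFLAR* probes gave -0.32 and -0.31, and 0.71 and 0.14.

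Of the proteins held between the mitochondrial membranes, *DIABLO* encodes SMAC, which frees caspases from IAPs. It read 9243 on the control array, 7284 under siRNA #7 and 5898 under siRNA #8, ratios of -0.34 ± 0.14 and -0.65 ± 0.15. A second *DIABLO* probe gave -0.0099 and -0.084, and spots around the first probe were also lower with siRNA #8 (-0.29). *HTRA2*, a protease that likewise binds IAPs, read 537, 499.6 and 649, ratios of -0.10 ± 0.15 and 0.27 ± 0.17.

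*CYCS*, which encodes cytochrome c, read 1385, 1485 and 1467, ratios of 0.10 ± 0.14 and 0.083 ± 0.15 that turned negative with spike-in scaling (-0.18 and -0.11), normexp (-0.079 and -0.14) and removal of neighboring signal (-0.11 and -0.17). Its second probe gave -0.053 and -0.12, and the dimmest probe gave 1.07 ± 0.25 and 0.87 ± 0.26. *ENDOG*, a mitochondrial nuclease, read 293, 293 and 235, with ratios of -0.0019 ± 0.16 and -0.32 ± 0.18. Its neighboring spots were also lower with siRNA #8 (-0.25), and removing their signal left 0.12 and -0.067, while the percentile over probes well above background turned the first to 0.0026. *AIFM1*, the apoptosis-inducing factor, read 1762, 1717 and 1993, ratios of -0.037 ± 0.14 and 0.18 ± 0.15, the second at -0.015 with spike-in scaling and -0.063 with normexp. *APAF1*, the scaffold of the apoptosome, was well above background on the control array only, at a scaled intensity of 9.58. It was at least 1.04-fold lower with siRNA #7 and at least 1.02-fold lower with siRNA #8, bounds too near 1 to show a difference.

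IAPs bind caspases or act as ubiquitin ligases in TNF signaling. *BIRC3*, which encodes cIAP2 and is induced by NF-kB, read 46.9 on the control array, 26.6 under siRNA #7 and 22.1 under siRNA #8, ratios of -0.82 ± 0.33 and -1.08 ± 0.34. The siRNA #8 ratio passed 2-fold by less than its SD, and normexp left -0.23 and -0.29. *BIRC2*, which encodes cIAP1, read 192, 156 and 152, ratios of -0.30 ± 0.16 and -0.34 ± 0.18, and its neighboring spots were lower with siRNA #8 (-0.19). *XIAP*, the direct inhibitor of caspase-9 and of executioner caspases, had ratios of opposite sign. It read 172, 214 and 139.7, ratios of 0.31 ± 0.16 and -0.30 ± 0.18, with the same signs under all 10 alternatives, although the first was only 0.035 with spike-in scaling.

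A pair of lists that cross these roles was also read. The p53-induced members (*BAX*, *BBC3*, *PMAIP1*, *BID*, *FAS*, *TNFRSF10B* and *APAF1*, of which 6 were readable) had medians of 0.13 with siRNA #7 and -0.10 with siRNA #8. The siRNA #7 median was -0.15 with spike-in scaling, -0.10 with normexp and -0.034 with the mean of a gene's probes. The NF-kB-induced members (*BIRC2*, *BIRC3*, *CFLAR* and *BCL2L1*) had medians of -0.061 and -0.25. Both lists held ratios of either sign with each siRNA.

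Set directly against siRNA #7, siRNA #8 gave lower values in 27 of the 37 genes, with a median of -0.16 against -0.011 for all genes. Of all genes, 48.9% had a ratio above 0. At 2-fold, 0 of 37 were higher and 0 lower, beside 2.32% and 3.38% of all genes, and 16 ratios exceeded 2 SDs, as did 37.2% of all genes. In 24 genes, 18 of them lower with siRNA #8, the sign of this ratio was the same under all 10 alternatives. No such count is given here for all genes. *PMAIP1* had the lowest ratio, at -0.99 ± 0.16, and it ranged from -1.14 to -0.88 over the alternatives. All 3 readable anti-apoptotic genes were lower with siRNA #8, *BCL2L2* at -0.53 ± 0.16, *MCL1* at -0.51 ± 0.17 and *BCL2L1* at -0.42 ± 0.056. Their median ranged from -0.51 to -0.37 over the alternatives. *XIAP* (-0.61 ± 0.17), *BCL2L11* (-0.52 ± 0.16) and *RIPK1* (-0.50 ± 0.17) were also lower, as was *TNFRSF10A* at -0.41 ± 0.17. On the other side, *BBC3* (0.60 ± 0.15), *CASP8* (0.60 ± 0.31), *FAS* (0.47 ± 0.10) and *HTRA2* (0.38 ± 0.15) were higher with siRNA #8, and *BBC3* was at 0.063 when neighboring signal was removed. Normexp reduced *CASP8* to 0.24, *FAS* to 0.19 and *TNFRSF10A* to -0.18, and *RIPK1* to -0.29.

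**Figure D3:**
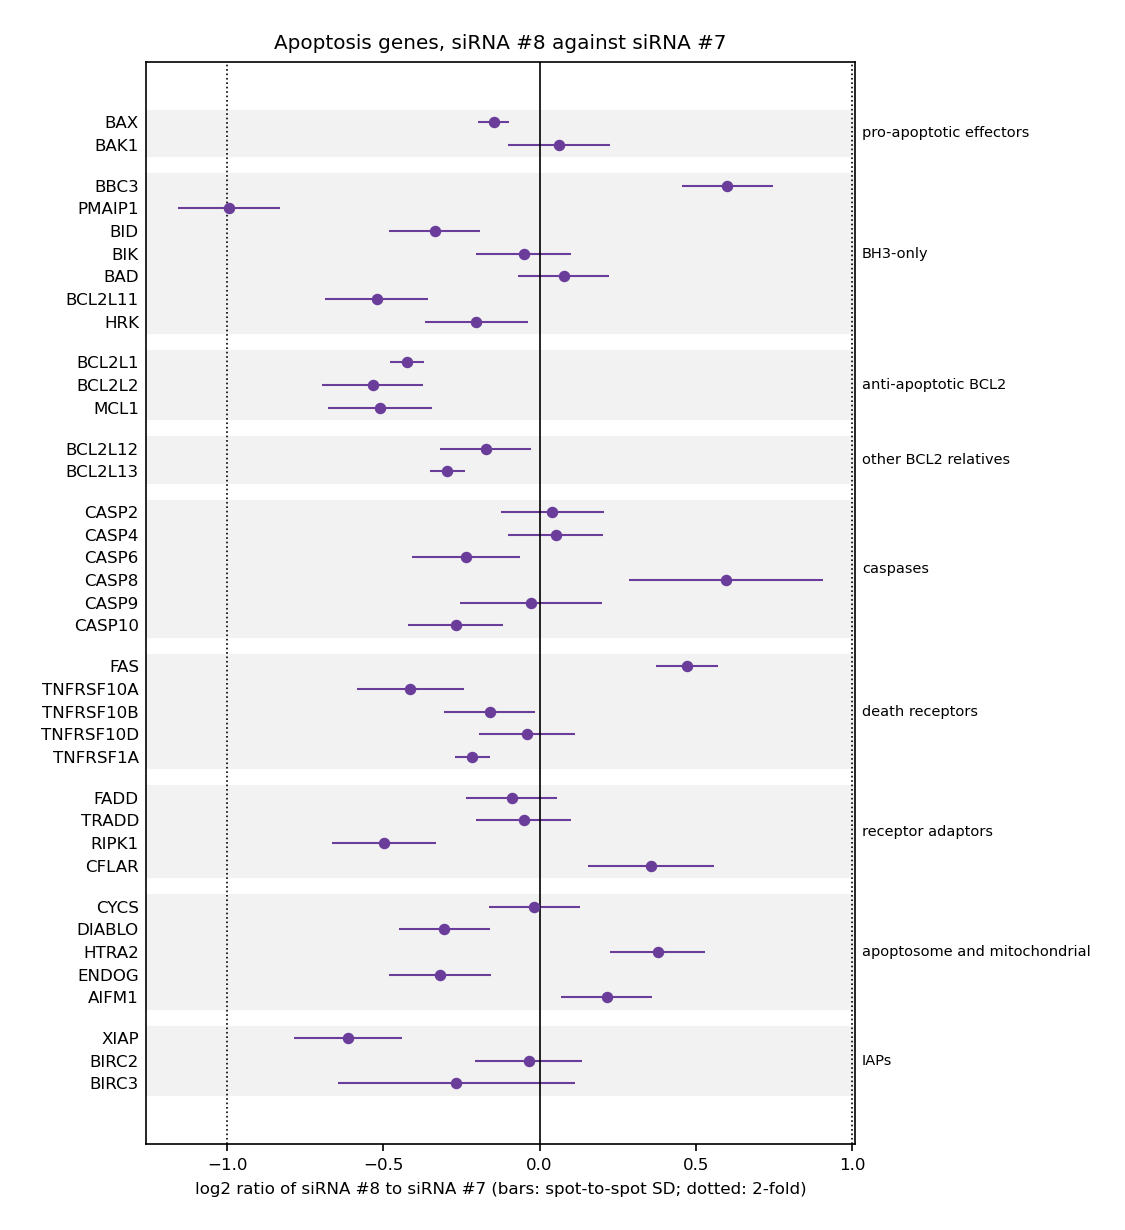
Log2 ratio of siRNA #8 to siRNA #7 for the 37 readable apoptosis genes by role, a comparison without the control array (1 array each). Bars show the spot-to-spot SD and dotted lines mark 2-fold. All anti-apoptotic BCL2 genes and IAPs lie left of 0, and *PMAIP1*, at -0.99, is farthest left. The ratio of *BIRC2*, -0.035, is within its bar and changed sign under 5 of the 10 alternatives.

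Several probes could be read for 11 of the 37 genes, which gives a check that does not depend on the choice of the brightest probe but uses the same RNA. All readable probes of a gene had 1 sign in 6 of the 11 genes with siRNA #7 and in 7 with siRNA #8. Probes split with both siRNAs in *BAX*, *CASP10*, *CFLAR* and *CYCS*, and with siRNA #7 in *BCL2L11*. The spot-to-spot SD was set by the signal range of a probe, so the dimmer *CASP10* probe had the wider one, 0.25 against 0.14 for siRNA #7.

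**Figure D4:**
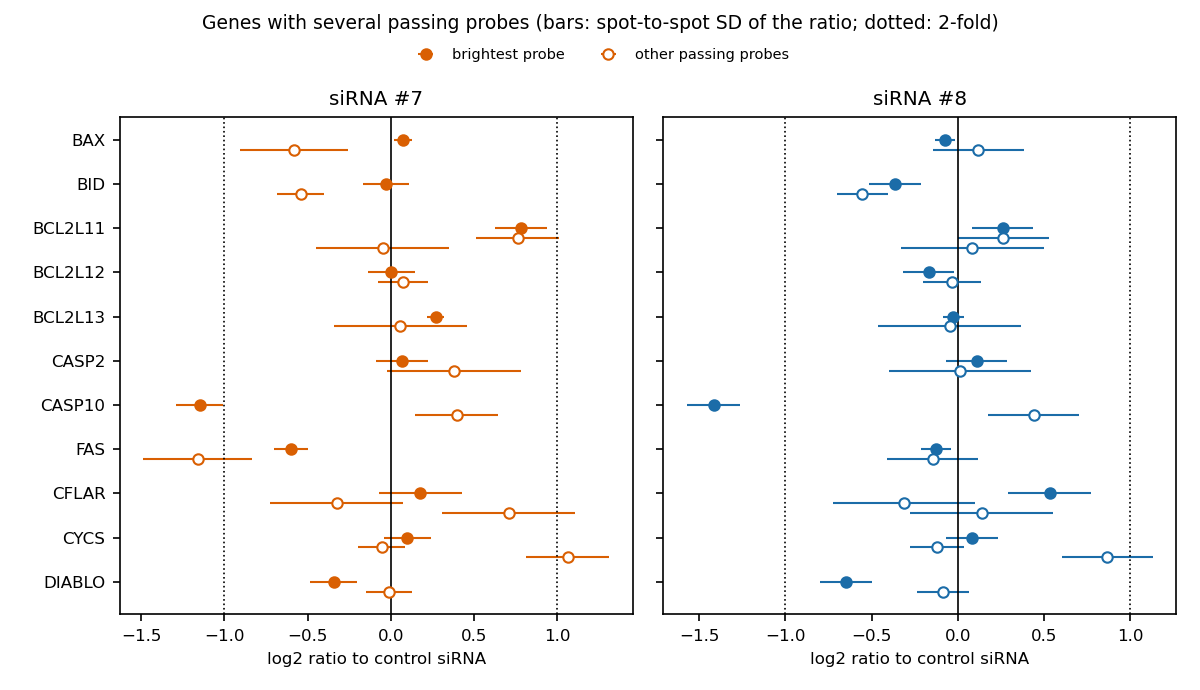
Log2 ratios to control siRNA of every readable probe of the 11 genes that have several, for siRNA #7 and siRNA #8 (1 array each). Filled points are the brightest probe, open points the others, bars the spot-to-spot SD, and dotted lines 2-fold. The probes of *CASP10* lie on opposite sides of 0, while both probes of *FAS* and of *BID* lie on the same side.

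Another 44 genes of the pathway, listed by name, were read the same way, and 30 had a readable probe. Their medians were 0.063 with siRNA #7 and -0.062 with siRNA #8. At least 2-fold higher with both siRNAs was 1 of the 30, where the share of all genes was 0.74%. *CASP5*, an inflammatory caspase related to *CASP4*, read 34.6 on the control array, 238 under siRNA #7 and 160.0 under siRNA #8. The ratios were 2.78 ± 0.32 and 2.21 ± 0.33 on a single spot, 1.63 and 1.20 with normexp, and 2.59 and 1.93 with neighboring signal removed. On the reported scale 0 of the 30 were 2-fold lower than control with either siRNA, where all genes gave 1.76% and 3.04%. Near that limit with siRNA #8 were *VDAC1*, a channel of the outer mitochondrial membrane, at -0.99, or -1.37 with the mean of its probes, and *BNIP3*, a hypoxia-induced mitochondrial protein, at -0.92, or -1.12 with spike-in scaling, both named after their values were seen.

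*BIRC5*, which encodes survivin, a cell division protein of the IAP family, read 9014 on the control array, 6526 under siRNA #7 and 7761 under siRNA #8, ratios of -0.47 ± 0.046 and -0.22 ± 0.048. In the direct comparison, 1 of the 30 genes was at least 2-fold lower with siRNA #8 than with siRNA #7, near the 3.38% of all genes. This was *TNFRSF12A*, the receptor of TWEAK, named after its values were seen, which read 3275, 5114 and 2486, a ratio of -1.04 ± 0.15 that was -0.82, and no longer 2-fold, with normexp.

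**Figure D5:**
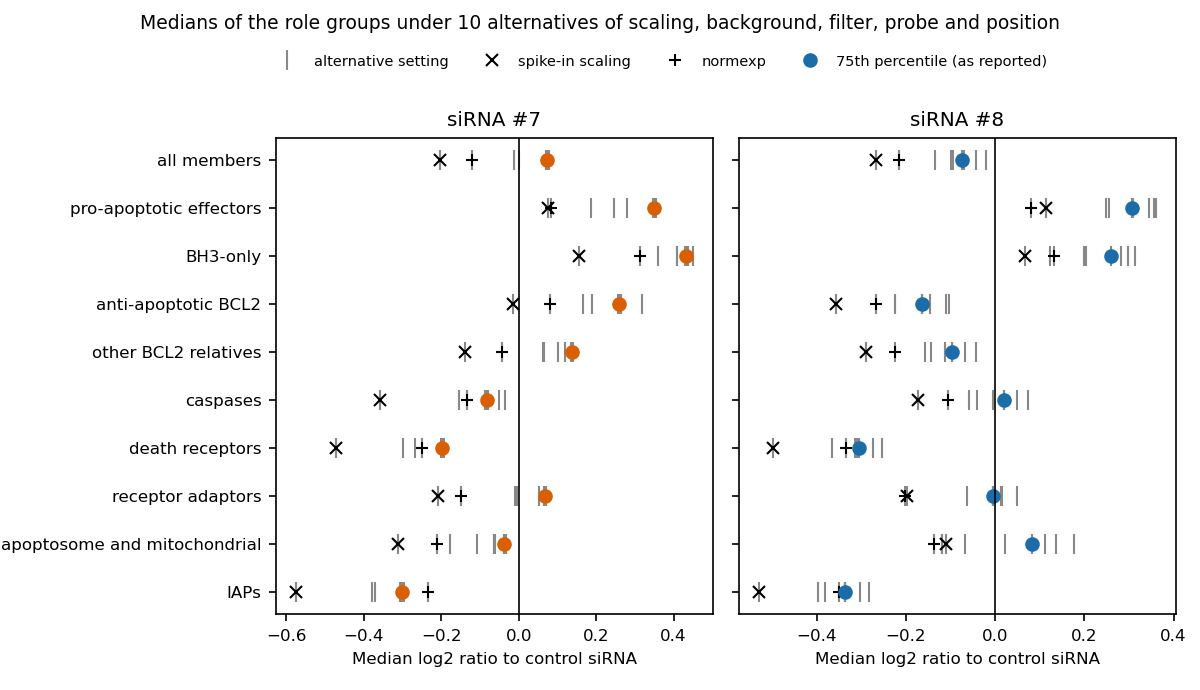
Median log2 ratio to control siRNA of all readable apoptosis genes and of each role group, as reported (filled circles) and under 10 alternatives (ticks, with spike-in scaling as a cross and normexp as a plus). The BH3-only median stays above 0 and the death receptor and IAP medians below 0 with both siRNAs, while the siRNA #7 medians of all readable genes together, the anti-apoptotic BCL2 genes, the other BCL2 relatives and the receptor adaptors change sign with spike-in scaling, as do the siRNA #8 medians of the caspases and of the apoptosome and mitochondrial genes.

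A test was possible only by treating the siRNA #7 and siRNA #8 arrays as 1 silenced group of 2 against the single control array. The siRNAs are different reagents and not replicates, so the spread within the group came only from the difference between them. Such a test favors genes in which both siRNAs differed alike from the shared control array, which is no independent support. The counts below therefore cannot decide whether these genes differed from control siRNA, or did so more often than all genes. With limma across 18121 probes, 0 of the 37 genes had an adjusted p under 0.05, beside 0.00831% of all genes. At an unadjusted p under 0.05 there were 3, *CASP10*, *BIRC3* and *BBC3*, or 8.11% of the 37 beside 3.27% of all genes. The smallest adjusted p of the 37 was 0.85, for *CASP10*, and the lone control array was assumed to vary like the others.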

How the data were processed

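Arrays of HCT116 cells given control siRNA, siRNA #7 or siRNA #8 were used, and the arrays of cells overexpressing *HOXA5* short RNA were not analysed here. The authors deposited for each spot the intensity after background subtraction by Agilent Feature Extraction 11.5.1.1, without scaling between arrays, together with other flags for outlier spots and spots well above background. The deposited log2 table holds values centered per probe on the median of the 3 arrays and served as an alternative. The deposited array names number the siRNAs differently from the labels, and the labels were followed.

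Spots flagged as outliers were left out, spots of a probe were averaged, and log2 intensity minus the 75th percentile of the array was computed in Python 3.11.15 (numpy 2.4.6, pandas 2.3.3). A readable probe exceeded background by the scanner flag (set on at least 50% of its spots) on all 3 arrays and lay at or above the 20th percentile on at least 2. RefSeq (GRCh38.p14) named 30000 of 50593 probes through transcript accessions. Since the design was annotated on an older build, no coordinates are given. The spot-to-spot SD was pooled, within 6 ranges of signal, from probes printed 10 times.

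No test was run in the main analysis. A bound compares a probe's signal with the lowest signal well above background. Alternatives were the median of each array, quantile normalization, the percentile over probes well above background, spike-in controls, normexp (offset 50, on median signals), the deposited log2 values, looser filters, the mean of a gene's probes, removal of neighboring signal within 3 rows and columns, a 1.5-fold threshold, and limma 3.58.1 in R 4.3.3 with Benjamini-Hochberg adjustment. The fold rule and limma were tried on simulated arrays in which both siRNAs changed the same genes alike. Filters, probe choice, bounds, spot-to-spot SDs and removal of neighboring signal were not tried in this way. The members, lists and alternatives were chosen with earlier results of these data known. All members were named or counted, and other pathway genes were named past 2-fold with either siRNA, plus *BIRC5*, and *TNFRSF12A*, *VDAC1* and *BNIP3* were named after their values were seen. Some items of the rule are not reported here.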

Additional observations from a re-analysis of the deposited data

How the results depend on the processing

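The number of genes past 2-fold with siRNA #7, reported as 1, was 2 with spike-in scaling, 0 with the mean of a gene's probes and 7 at 1.5-fold. With siRNA #8, reported as 3, it was 5 without a filter on dim probes, 5 with probes well above background on at least 1 array, 6 at 1.5-fold, and 2 with normexp, with the mean of a gene's probes and with neighboring signal removed. The looser filters let in the near-background probes of *BMF* and *APAF1*. For both siRNAs the same way, reported as 1, it was 2 with spike-in scaling, 0 with the mean of a gene's probes and 4 at 1.5-fold. At 1.5-fold with both siRNAs, 3.03% of all genes were higher and 1.67% lower. Shares of all genes for the other changed counts are not given here. Those counts therefore show how the calls depend on processing and cannot be read as results about the 37 genes. By limma, whose count is of adjusted p-values and not of folds, it was 0 where 1 of 12031 genes passed, so that this 0 says little. The median over the genes with siRNA #7, reported as 0.073, was -0.20 with spike-in scaling and -0.12 with normexp, and with siRNA #8, reported as -0.073, it was -0.27 with spike-in scaling. Spike-in scaling rests on 8 probes, and without a filter the median of all genes was 0.14 with each siRNA. Under the 10 alternatives of scaling, background, filter, probe and position, 20 of 37 genes kept the sign of both ratios, and none of the ratios past 2-fold changed sign. The share of all genes that kept both signs is not given here, so the 37 cannot be called more or less stable than other genes. No paired analysis was possible because only 1 array stands for a condition, and for the same reason no replicate could be left out. Naming probes by a gene name column was not run, since the files used hold none. Signal over background limits the dim probes, of which *BIRC3*, *CASP8* and *FAS* were among the dimmest.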
